A study of Mus musculus with 6 samples.

Results

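The nuclear genes for the subunits of respiratory complexes II, III and IV and of ATP synthase were followed in mouse hippocampal neurospheres grown with norepinephrine or with potassium chloride. They were taken by symbol, as the succinate dehydrogenase genes Sdha to Sdhd, Cyc1 and all genes whose symbols begin with Uqcr, Cox4 to Cox8 or Atp5. This gave 47 genes among the 19937 with a named probe set, represented by 66 probe sets, and each gene was read from its probe set of highest mean over the 6 arrays. Complex II had 4 genes, complex III 9, complex IV 17 and ATP synthase 17. A further 3 probe sets listed Cox7c together with a second symbol and were left out.

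Primary neurospheres are spheres of cells that arise from single neural precursors in suspension culture. The hippocampal cells came from C57BL/6J mice, adult males 8 to 12 weeks old, the medium held EGF and bFGF, and the spheres were collected on day 14. One group received 10 µM norepinephrine, a monoamine transmitter, and the other 15 mM potassium chloride (KCl), which depolarises neurons. All 6 samples are titled as big neurospheres, so the values do not describe smaller spheres. Each group had 3 samples on 1 whole-transcript array each, and each value is the log2 expression of 1 probe set on 1 array. No untreated samples were analysed here, so a difference between the groups does not show which treatment lies away from the untreated level. The samples are titled as biological replicates, but nothing read here says that each had an animal or culture of its own, and p-values then measure only the spread between these samples, which may be technical. The RNA came from whole spheres, in which fewer cells of a type and less RNA per cell cannot be told apart.

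The respiratory chain of the inner mitochondrial membrane passes electrons from food-derived carriers to oxygen and pumps protons as it does so, and ATP synthase lets the protons flow back to make ATP. Complex II (succinate dehydrogenase) also belongs to the citric acid cycle and pumps no protons. Complex III passes electrons from ubiquinol to cytochrome c, and complex IV (cytochrome c oxidase) passes them on to oxygen. Mitochondrial DNA encodes cytochrome b of complex III, the catalytic core of complex IV and parts of the ATP synthase membrane sector, while every subunit of complex II is encoded in the nucleus. Neural stem cells are known to lean on glycolysis and to depend more on oxidative phosphorylation as their progeny differentiate.

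Many nuclear genes of the chain are known targets of the transcription factors NRF1, GABP (an ETS family factor also called NRF2) and YY1. RefSeq promoter windows of the GRCm38.p6 assembly, running from 250 bases before to 50 bases after a gene's start, were at hand for 35 of the 47 genes. The NRF1 motif, GCGCA and GCGC with any 1 base between them, was searched on both strands like the others, and was found in the windows of 10 of these genes (28.6%), against 5.19% of the 27025 genes with such a window. The ETS motif CCGGAAG was found in 13 (37.1%, against 9.93%) and the YY1 motif AAGATGGCG in 2 (5.71%, against 1.64%, Atp5j and Atp5j2). At least 1 of the 3 motifs was found in 20 genes (57.1%), against 15.1% of all genes. The genes compared with were not matched to the 35 in expression or base composition, so these shares do not show a trait particular to respiratory genes. NRF1 and ETS motifs stood together in Sdhd, Cox6a1, Atp5k and Atp5h. A match is a description of the letters and not evidence of binding.

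Upstream sequences of 5 genes are shown to let the motifs be seen next to the genes whose values are followed below. They were picked after the values were seen. Sdha has the NRF1 motif 3 times, Cox6a1 has it 2 times beside an ETS motif, and Uqcrh, Uqcr11 and Atp5e have 1 ETS motif each. In Sdha the treatments overlapped, with and without KCl replicate 1. In Uqcrh, Uqcr11, Cox6a1 and Atp5e every norepinephrine value lay above every KCl value both times. Such a separation was found in 4.36% of the named probe sets, and in 8.13% without KCl replicate 1. The difference of Uqcrh was 1.27 ± 0.79 over 6 arrays and 0.13 ± 0.16 without that array. Each sequence is the 200 bases before the start, 5′ to 3′ on the gene's strand, with motifs in capitals (an ETS motif on the other strand reads CTTCCGG). On the minus strand of GRCm38.p6, they lie at chr13:74350241-74350440 (Sdha), chr4:116075071-116075270 (Uqcrh), chr10:80406822-80407021 (Uqcr11), chr5:115348959-115349158 (Cox6a1) and chr2:174464102-174464301 (Atp5e).
Sdha: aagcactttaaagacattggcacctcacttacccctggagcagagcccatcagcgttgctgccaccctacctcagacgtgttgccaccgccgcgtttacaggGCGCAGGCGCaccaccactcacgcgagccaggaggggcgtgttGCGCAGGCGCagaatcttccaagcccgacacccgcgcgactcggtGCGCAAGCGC
Uqcrh: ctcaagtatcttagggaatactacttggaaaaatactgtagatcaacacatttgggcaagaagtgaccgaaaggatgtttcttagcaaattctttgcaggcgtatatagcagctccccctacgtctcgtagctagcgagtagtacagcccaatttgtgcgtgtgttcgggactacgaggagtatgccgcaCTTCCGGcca
Uqcr11: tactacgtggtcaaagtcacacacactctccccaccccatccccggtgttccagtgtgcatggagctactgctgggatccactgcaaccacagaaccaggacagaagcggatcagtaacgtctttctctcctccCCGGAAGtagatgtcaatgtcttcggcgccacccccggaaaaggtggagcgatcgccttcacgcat
Cox6a1: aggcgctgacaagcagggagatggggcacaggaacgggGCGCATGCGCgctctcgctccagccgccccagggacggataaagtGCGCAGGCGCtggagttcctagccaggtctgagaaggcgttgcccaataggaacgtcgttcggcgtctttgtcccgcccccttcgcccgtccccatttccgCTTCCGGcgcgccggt
Atp5e: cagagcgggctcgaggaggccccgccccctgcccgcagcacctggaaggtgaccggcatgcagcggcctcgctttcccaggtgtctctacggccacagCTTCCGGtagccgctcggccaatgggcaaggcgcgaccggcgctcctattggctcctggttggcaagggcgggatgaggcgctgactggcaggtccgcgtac

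One array, KCl replicate 1, was unlike the other 5. Its log2 values had a standard deviation of 1.38 over the 21640 named probe sets, against 1.62 to 1.78 on the others, so that bright probe sets read low and dim ones high. It gave the lowest of the 6 values in 25.1% of the named probe sets, in 63.5% of the 5410 bright ones (a mean above the 75th percentile, 8.22), and in 30 of the 47 respiratory genes (63.8%). It gave the highest of the 6 values in 51.2% of the named probe sets and in 6 of the 47 genes. Since 41 of the 47 genes were bright by this rule, differences and counts are given with and without this array. Apart from this array, most markers of another cell type moved with the groups. The 6 astrocyte markers averaged 8.98 to 9.06 on the norepinephrine arrays and 7.84 to 8.07 on the KCl arrays. Of the 6, 5 were higher with norepinephrine at an unadjusted p under 0.05 in limma, against 2.2% of the named probe sets. The other, S100b, went the other way, at -0.29 ± 0.19, or -0.19 ± 0.17 without KCl replicate 1. Neural precursor markers (9 of 10 measured) averaged 9.36 to 9.72 over the 6 arrays. Of these 9, 4 were higher with norepinephrine, and 6 without KCl replicate 1, where Nes was at -0.58 ± 0.17. Neuronal markers averaged 7.75 to 8.02 with norepinephrine and 7.53 to 7.64 with KCl, but did not move alike. Snap25 was at 1.03 ± 0.27 and Tubb3 at 0.47 ± 0.18. Map2 was at -0.33 ± 0.18, the only 1 of the 6 that was lower with norepinephrine. The part of these cells in the values below was not tested. Markers of oligodendrocytes (5 of 6 measured) averaged 7.34 to 8.01, those of microglia 5.96 to 6.69 and those of endothelium 6.33 to 6.84 over all arrays, on a scale that has no detection limit.

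Of the 47 genes, 44 had a higher mean with norepinephrine than with KCl, 39 after quantile and 35 after cyclic loess normalization of the arrays, with a median difference of 0.44 on the log2 scale (a 1.35-fold ratio), or 0.30 and 0.27 after these normalizations. Over all named probe sets the difference was above 0 in 38%, with a median of -0.075, and over the bright ones in 70.4%, with a median of 0.15. After quantile normalization it was above 0 in 45% of the named and 56.7% of the bright probe sets, and after cyclic loess in 50.7% and 53.5%. No gene passed the test: limma's adjusted p over the named probe sets lay between 0.939 and 0.988 for these genes, and 0 of 21640 probe sets (0%) were called at an adjusted p under 0.05. At an unadjusted p under 0.05, 11 genes (23.4%) were higher with norepinephrine and 0 with KCl. The background was 2.2% of the named probe sets in the direction of norepinephrine and 1.24% in that of KCl, and 4.84% and 0.869% of the bright ones. The count of 11 was 2 without norepinephrine replicate 1, 5 when norepinephrine replicate 3 was left out and 26 when KCl replicate 2 was. The background in the direction of norepinephrine was then 0.92%, 1.15% and 8.64% of the named probe sets, and in that of KCl it was 7.68% with KCl replicate 2 left out. In 17 genes the 3 norepinephrine values all lay above the 3 KCl values, as they did in 4.36% of the named and 9.45% of the bright probe sets. In 0 genes did all KCl values lie above all norepinephrine values, against 4.77% of the named and 3.07% of the bright probe sets.

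Without KCl replicate 1, 42 of the 47 genes had a higher mean with norepinephrine (also 42 after quantile and 42 after cyclic loess normalization), and the median difference was 0.26 (a 1.20-fold ratio). The median of all named probe sets was then 0.0083 and that of the bright ones -0.013, with 52.2% and 48% above 0. After quantile normalization these shares were 54.9% and 49%, and after cyclic loess 52.1% and 49.9%. Again 11 genes had an unadjusted p under 0.05, all higher with norepinephrine, and 9 of them were among the earlier 11. The background was then 2.38% of the named and 4.03% of the bright probe sets, with 2.25% and 3.42% in the direction of KCl. The groups did not overlap in 18 genes (38.3%), against 8.13% of the named and 11% of the bright probe sets. In 0 genes did both KCl values lie above all norepinephrine values, against 8.08% and 10.9%. The lowest adjusted p among the genes was 0.589 in limma, so 0 were called, while 4 of the 21640 probe sets (0.0185%) were. The difference was smaller in size without the array in 35 of the 47 genes, and in 12 of those that stayed above 0 it had been more than 2 times as large with it.

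The norepinephrine arrays also differed among themselves. Replicate 1 read higher than replicate 2 in 35 of the 47 genes and higher than replicate 3 in 40, by medians of 0.31 and 0.19. This is about the size of the treatment difference left without KCl replicate 1, before any background is considered. Over all named probe sets the medians of these pairs were 0.092 and 0.018. The bright probe sets averaged 9.39, 9.49 and 9.37 on norepinephrine replicates 1, 2 and 3. All 9 pairings of a norepinephrine with a KCl array had a median above 0 over the 47 genes. These medians were 0.88, 0.54 and 0.55 for norepinephrine replicates 1, 2 and 3 against KCl replicate 1, then 0.37, 0.087 and 0.13 against KCl replicate 2, and 0.46, 0.27 and 0.28 against KCl replicate 3. Over all named probe sets the corresponding medians were -0.21, -0.30 and -0.23, then 0.12, 0.012 and 0.091, and -0.024, -0.11 and -0.038. For norepinephrine replicate 3 against KCl replicate 2, the medians of 0.13 and 0.091 were thus close. The bright probe sets averaged 9.37 on norepinephrine replicate 3 and 9.54 on KCl replicate 2, while the 47 genes averaged 10.45 and 10.32. With norepinephrine replicate 1 and KCl replicate 1 both left out, 41 genes were still higher in the norepinephrine group, with a median of 0.19, and 2 had an unadjusted p under 0.05. The named probe sets then had a median of -0.0087, with 1.34% at an unadjusted p under 0.05 in the direction of norepinephrine and 1.39% in that of KCl.

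**Figure D1:**
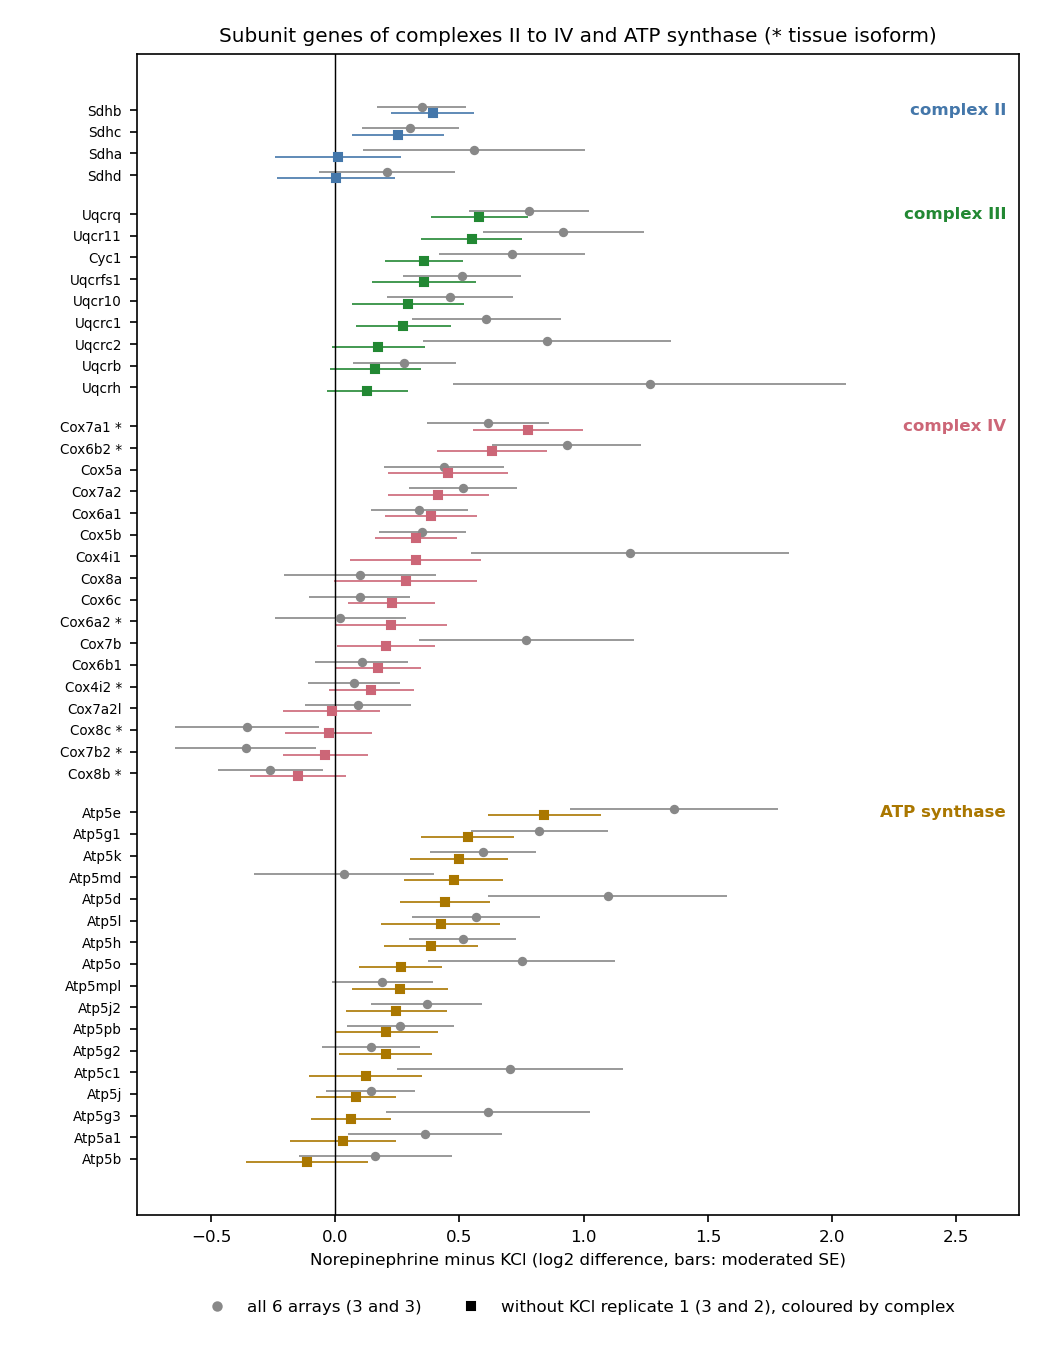
Norepinephrine minus KCl difference (log2, horizontal axis) of each of the 47 genes, grouped by complex, from all 6 arrays (grey circles) and without KCl replicate 1 (coloured squares), with bars of 1 moderated standard error. Points lie right of 0 for 44 genes with all arrays (39 after quantile and 35 after cyclic loess normalization) and for 42 without KCl replicate 1 (42 and 42), and no gene has an adjusted p under 0.05.

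Complex II. All 4 genes had a higher mean with norepinephrine, with and without KCl replicate 1 and after quantile and cyclic loess normalization. With norepinephrine replicate 1 left out as well as KCl replicate 1, Sdhd was at -0.12. Their median difference was 0.33, or 0.18 and 0.15 after these normalizations, and 0.13 without KCl replicate 1. Sdha, the flavoprotein that oxidises succinate, read 10.34, 10.83 and 10.42 on the norepinephrine arrays and 8.87, 10.90 and 10.14 on the KCl arrays. The KCl values enclosed the norepinephrine values, and KCl replicate 2 was the highest of all 6, so the difference of 0.56 ± 0.45 became 0.011 ± 0.25 without KCl replicate 1. Sdhb, the iron-sulfur subunit that relays the electrons, read 9.82, 9.88 and 9.70 on the norepinephrine arrays and 9.54, 9.50 and 9.32 on the KCl arrays. Here every norepinephrine value lay above every KCl value, KCl replicate 1 was the highest of its group, and the difference was 0.35 ± 0.18, or 0.39 ± 0.17 without that array.

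The membrane anchors of complex II bind ubiquinone and heme. Sdhc read 10.56, 10.61 and 10.24 on the norepinephrine arrays and 10.07, 10.34 and 10.10 on the KCl arrays, and its difference was 0.30 ± 0.19, or 0.25 ± 0.18 without KCl replicate 1. Its groups overlapped only through norepinephrine replicate 3 and KCl replicate 2. Sdhd, the other anchor, read 9.22, 8.90 and 8.79 on the norepinephrine arrays and 8.35, 9.32 and 8.62 on the KCl arrays, with KCl replicate 2 again the highest of all 6. Its difference was 0.21 ± 0.27, and 0.0019 ± 0.24 without KCl replicate 1. Within this complex, Sdhb and Sdhc kept the size of their difference when KCl replicate 1 was left out, and Sdha and Sdhd did not.

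Complex III. All 9 genes had a higher mean with norepinephrine, with and without KCl replicate 1 and after quantile and cyclic loess normalization. The median difference was 0.71 over 6 arrays, where KCl replicate 1 gave the lowest value in 9 of 9 genes, and 0.29 without that array. After quantile and cyclic loess normalization it was 0.55 and 0.52. The 3 genes at an unadjusted p under 0.05 were Cyc1, Uqcrq and Uqcr11, both with and without KCl replicate 1. The groups did not overlap in 5 of the 9 each time. Toward norepinephrine, 2.2% of the named probe sets and 4.84% of the bright ones had such a p, and 2.38% and 4.03% without KCl replicate 1. No overlap in that direction was found in 4.36% and 9.45%, and in 8.13% and 11% without that array.

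The electron-carrying subunits encoded in the nucleus are cytochrome c1 and the Rieske iron-sulfur protein. Cyc1, cytochrome c1, read 10.88, 10.84 and 10.90 on the norepinephrine arrays and 9.46, 10.51 and 10.53 on the KCl arrays. The norepinephrine values were close together and above every KCl value, and the difference was 0.71 ± 0.29, or 0.36 ± 0.16 without KCl replicate 1. Uqcrfs1, the Rieske protein, read 10.75, 10.42 and 11.06 on the norepinephrine arrays and 9.93, 10.33 and 10.44 on the KCl arrays. Norepinephrine replicate 2 lay within the range of the KCl values, and the difference was 0.51 ± 0.24, or 0.36 ± 0.21. The core proteins, which are related to mitochondrial processing peptidases, are Uqcrc1 and Uqcrc2. Uqcrc1 read 10.01, 9.60 and 9.63 on the norepinephrine arrays and 8.47, 9.59 and 9.35 on the KCl arrays. Its groups did not overlap, though norepinephrine replicate 2 and KCl replicate 2 were almost equal, and the difference was 0.61 ± 0.30, or 0.27 ± 0.19. Uqcrc2 had a difference of 0.85 ± 0.50, and of 0.17 ± 0.19 without KCl replicate 1, which was -2.03 from the mean of the other KCl arrays.

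Among the small subunits, Uqcrh, the hinge protein that lies at cytochrome c1, carried the largest shift of KCl replicate 1 of all 47 genes. It read 12.84, 12.63 and 12.66 on the norepinephrine arrays and 9.17, 12.59 and 12.57 on the KCl arrays. The other 5 values lay close together, though every norepinephrine value was above every KCl value. The difference of 1.27 ± 0.79 became 0.13 ± 0.16 without KCl replicate 1. Uqcr11, a small membrane subunit, read 9.20, 8.94 and 8.79 on the norepinephrine arrays and 7.33, 8.65 and 8.20 on the KCl arrays. Its groups did not overlap, and the difference was 0.92 ± 0.32, or 0.55 ± 0.20. Uqcrq, which contacts cytochrome b, did not overlap between treatments either and had a difference of 0.78 ± 0.24, or 0.58 ± 0.19 without KCl replicate 1. Over 6 arrays the smallest differences of the complex were those of Uqcrb, which is also next to cytochrome b, and of Uqcr10, while without KCl replicate 1 Uqcrh was the smallest. Uqcrb read 11.64, 11.22 and 11.45 on the norepinephrine arrays and 10.92, 11.20 and 11.36 on the KCl arrays, with a difference of 0.28 ± 0.21, or 0.16 ± 0.18. Uqcr10 read 10.82, 10.13 and 10.30 on the norepinephrine arrays and 9.62, 10.27 and 9.98 on the KCl arrays, with a difference of 0.46 ± 0.25, or 0.29 ± 0.23. In both, the treatments overlapped.

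**Figure D2:**
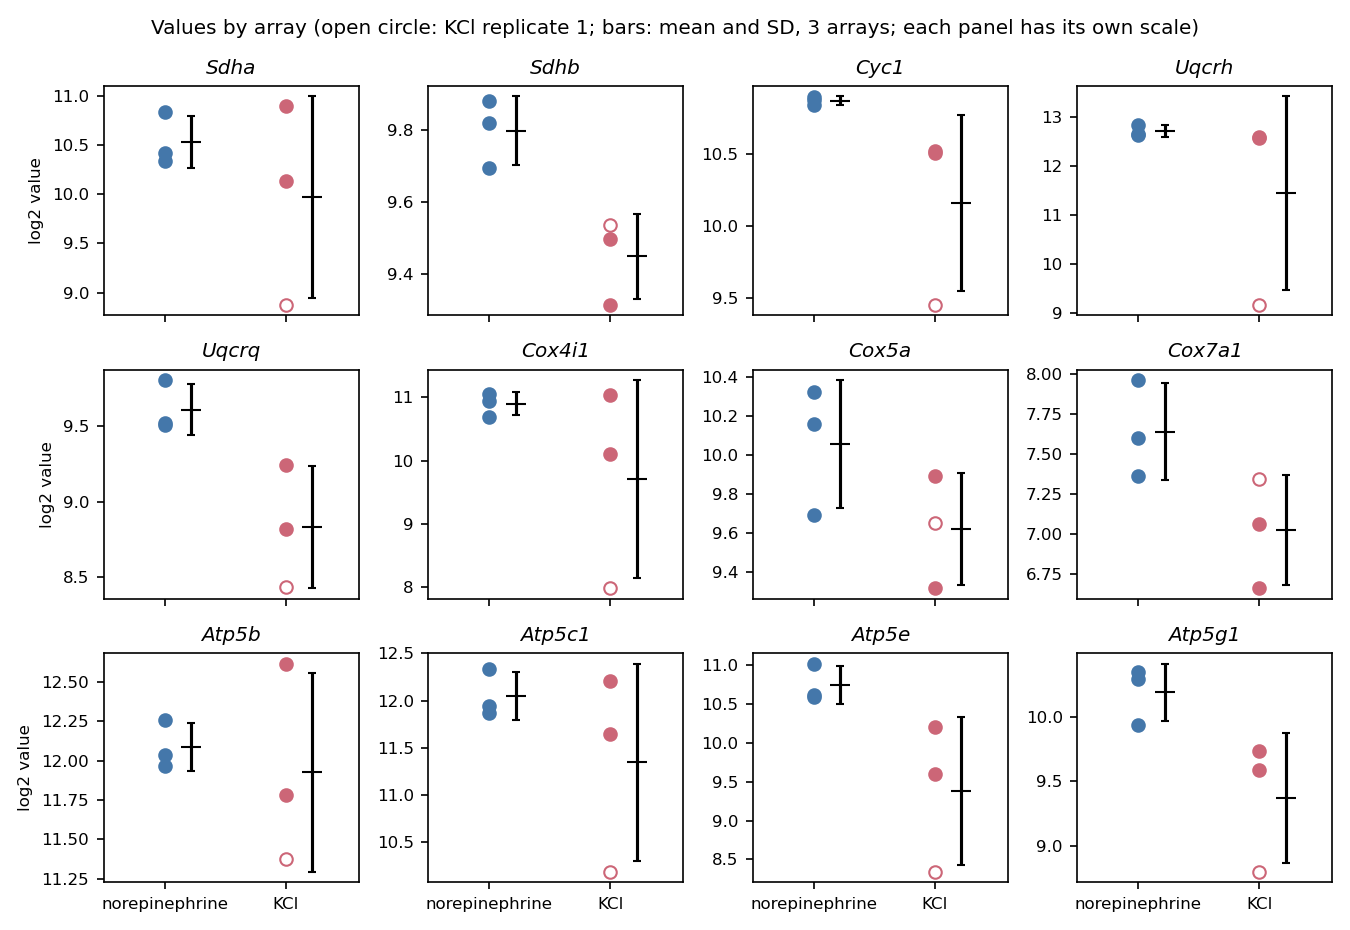
Log2 values on each array for 12 of the genes (vertical axis, a scale of its own in each panel), norepinephrine in blue and KCl in red, the open circle being KCl replicate 1, with the mean and standard deviation of the 3 arrays beside the points. In Uqcrh, Cox4i1 and Atp5c1 the open circle lies far below all other points, whereas in Sdhb and Cox7a1 it is the highest KCl value and still lies below every norepinephrine value.

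Complex IV. Of 17 genes, 14 were higher with norepinephrine (11 after quantile and 10 after cyclic loess normalization), and 13 without KCl replicate 1 (14 and 13), with medians of 0.11 and 0.23. This median was small and moved with every array left out, from 0.045 without norepinephrine replicate 1 to 0.34 without norepinephrine replicate 2. The complex mixes subunits made in most cells with isoforms known from particular tissues, and both kinds were read separately. The 10 genes that are not tissue isoforms were all higher with norepinephrine, but 8 of them after quantile and 6 after cyclic loess normalization. Their median was 0.34, and 0.30 without KCl replicate 1, where 9 of the 10 were higher. The 7 tissue isoforms had a median of 0.020, or 0.15 without KCl replicate 1. Of the 7, 4 were higher with norepinephrine each time (with quantile normalization, 3 and then 5). Only 1 isoform was bright (a mean above the 75th percentile), against 10 of the 10 other genes. KCl replicate 1, on which dim probe sets read high, gave the highest of the 6 values in 4 isoforms and in 1 of the others. The part of brightness in this contrast was not tested.

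Cox4i1, the common isoform of the largest nuclear subunit, read 10.94, 11.04 and 10.69 on the norepinephrine arrays and 7.98, 11.03 and 10.10 on the KCl arrays. KCl replicate 1 lay far below the rest, while KCl replicate 2 was level with the highest norepinephrine array, and the difference of 1.19 ± 0.64 became 0.32 ± 0.26 without KCl replicate 1. Cox5a, which binds thyroid hormone and lies on the matrix side, read 10.32, 9.69 and 10.16 on the norepinephrine arrays and 9.65, 9.31 and 9.89 on the KCl arrays. KCl replicate 1 was not apart here, and the difference was 0.44 ± 0.24, or 0.45 ± 0.24 without it, with overlap between the treatments. Cox5b, the zinc-binding subunit, and Cox6a1, the common isoform of subunit 6a, did not overlap between treatments. Their differences were 0.35 ± 0.18 and 0.34 ± 0.19, or 0.33 ± 0.16 and 0.39 ± 0.18 without KCl replicate 1.

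Cox7a2, the common isoform of subunit 7a, did not overlap either, with a difference of 0.51 ± 0.22, or 0.41 ± 0.20. Cox7b had a difference of 0.77 ± 0.43, and 0.20 ± 0.20 without KCl replicate 1. The remaining common subunits had small differences that grew without KCl replicate 1. Cox6b1, which joins the monomers of the complex, had 0.11 ± 0.19 and then 0.17 ± 0.17. Cox6c had 0.10 ± 0.20 and then 0.23 ± 0.18, and Cox8a had 0.10 ± 0.31 and then 0.28 ± 0.29. After cyclic loess normalization over 6 arrays these 3 genes were below 0. Cox7a2l, a factor that joins complexes III and IV into supercomplexes, had 0.093 ± 0.21 and then -0.015 ± 0.19, and was below 0 after quantile and cyclic loess normalization.

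The tissue isoforms differed among themselves. Cox4i2, the isoform of lung and of low oxygen, read 7.10, 6.87 and 6.86 on the norepinephrine arrays and 7.01, 6.72 and 6.87 on the KCl arrays, with a difference of 0.075 ± 0.19, or 0.15 ± 0.17 without KCl replicate 1. Cox7a1, the heart and muscle isoform of subunit 7a, had values that did not overlap between treatments, but only narrowly. The lowest norepinephrine value was 7.36 and the highest KCl value, that of KCl replicate 1, was 7.34. It had a difference of 0.62 ± 0.25, or 0.77 ± 0.22 without KCl replicate 1. Cox6b2, the testis isoform of subunit 6b, read 9.78, 9.12 and 9.23 on the norepinephrine arrays and 7.85, 8.64 and 8.85 on the KCl arrays. It did not overlap either, and its difference was 0.93 ± 0.30, or 0.63 ± 0.22.

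Cox7b2 and Cox8c, both testis isoforms, had the lowest differences of the 17 over 6 arrays, while without KCl replicate 1 Cox8b had the lowest. Cox7b2 read 4.61, 4.31 and 4.53 on the norepinephrine arrays and 5.49, 4.47 and 4.58 on the KCl arrays, and its difference of -0.36 ± 0.28 became -0.040 ± 0.17 without KCl replicate 1. Cox8c read 6.61, 6.47 and 6.67 on the norepinephrine arrays and 7.60, 6.47 and 6.76 on the KCl arrays, and its difference of -0.36 ± 0.29 became -0.027 ± 0.17. In both, KCl replicate 1 was the highest of the 6 arrays and the other 5 lay close together. The muscle isoforms Cox6a2 and Cox8b had differences of 0.020 ± 0.26 and -0.26 ± 0.21, or 0.23 ± 0.22 and -0.15 ± 0.19 without KCl replicate 1.

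ATP synthase. All 17 genes were higher with norepinephrine over 6 arrays, but 15 after quantile and 12 after cyclic loess normalization, and 16 without KCl replicate 1 (15 and 16). The median difference was 0.51, or 0.37 and 0.31 after these normalizations, and 0.26 without KCl replicate 1. The groups did not overlap in 6 genes (35.3%), against 4.36% of the named and 9.45% of the bright probe sets. Without KCl replicate 1 this held in 7 (41.2%), against 8.13% and 11%. An unadjusted p under 0.05 was reached by 5 genes (29.4%) each time. They were Atp5d, Atp5e, Atp5g1, Atp5h and Atp5k over 6 arrays, with Atp5md in the place of Atp5h without KCl replicate 1. Toward norepinephrine, 2.2% of the named and 4.84% of the bright probe sets reached it, and 2.38% and 4.03% without that array.

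The catalytic head is built of the alpha subunit Atp5a1 and the beta subunit Atp5b. Atp5b read 11.97, 12.26 and 12.04 on the norepinephrine arrays and 11.38, 12.62 and 11.78 on the KCl arrays. KCl replicate 2 was the highest of the 6 arrays and KCl replicate 1 the lowest, so that the difference of 0.16 ± 0.31 became -0.11 ± 0.25 without KCl replicate 1, and was just below 0 after quantile and cyclic loess normalization. Atp5a1 had the same arrays highest and lowest, with a difference of 0.36 ± 0.31, and 0.031 ± 0.21 without KCl replicate 1. Of the 5 parts of the enzyme, the head had the lowest median without KCl replicate 1, -0.041.

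The central stalk, which turns within the head, consists of the gamma, delta and epsilon subunits. Atp5c1 (gamma) read 11.94, 12.34 and 11.86 on the norepinephrine arrays and 10.18, 12.21 and 11.64 on the KCl arrays. Without KCl replicate 1 its difference of 0.70 ± 0.45 became 0.12 ± 0.23. Atp5d (delta) read 10.91, 10.52 and 10.86 on the norepinephrine arrays and 8.36, 10.35 and 10.30 on the KCl arrays, with no overlap, and its difference was 1.10 ± 0.48, or 0.44 ± 0.18. Atp5e (epsilon) read 11.02, 10.61 and 10.59 on the norepinephrine arrays and 8.34, 10.20 and 9.60 on the KCl arrays. Every norepinephrine value lay above every KCl value, and its difference of 1.36 ± 0.42 (2.57-fold) was the largest of all 47 genes. Without KCl replicate 1 it was 0.84 ± 0.23 (1.79-fold), still the largest of the 47, with an adjusted p of 0.589 in limma. The median of the 3 stalk genes was 1.10, and 0.44 without KCl replicate 1.

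The ring that protons turn is made of the c subunit, for which Atp5g1, Atp5g2 and Atp5g3 encode the same mature protein behind different import sequences. Atp5g1 read 10.35, 9.94 and 10.30 on the norepinephrine arrays and 8.79, 9.59 and 9.74 on the KCl arrays. It did not overlap, and its difference was 0.82 ± 0.27, or 0.53 ± 0.19 without KCl replicate 1. Atp5g2 read 12.48, 12.15 and 12.16 on the norepinephrine arrays and 12.23, 12.21 and 11.91 on the KCl arrays, with a difference of 0.15 ± 0.20, or 0.20 ± 0.19. Atp5g3 read 12.47, 12.55 and 12.42 on the norepinephrine arrays and 10.76, 12.49 and 12.34 on the KCl arrays, with a difference of 0.61 ± 0.41, or 0.064 ± 0.16. The treatments overlapped in Atp5g2 and Atp5g3, and the shift of KCl replicate 1 from the mean of the other KCl arrays was -0.87 in Atp5g1, 0.17 in Atp5g2 and -1.65 in Atp5g3. Differences between the 3 genes were not tested.

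The peripheral stalk holds the head still. Its genes Atp5o (OSCP), Atp5pb (subunit b), Atp5h (subunit d) and Atp5j (coupling factor 6) had differences of 0.75 ± 0.37, 0.26 ± 0.21, 0.51 ± 0.21 and 0.14 ± 0.18. Without KCl replicate 1 these were 0.26 ± 0.17, 0.21 ± 0.21, 0.39 ± 0.19 and 0.083 ± 0.16. Atp5o and Atp5h did not overlap between treatments. Atp5j read 11.45, 11.48 and 11.36 on the norepinephrine arrays and 11.17, 11.43 and 11.27 on the KCl arrays, with overlap between the treatments, and was below 0 after cyclic loess normalization.

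The small accessory subunits lie in the membrane, where some hold the enzyme's dimers together. Atp5k (subunit e) did not overlap and had a difference of 0.60 ± 0.21, or 0.50 ± 0.20 without KCl replicate 1. Atp5l (subunit g) had 0.57 ± 0.26 and then 0.42 ± 0.24. Atp5j2 (subunit f) had 0.37 ± 0.22 and then 0.25 ± 0.20. Atp5mpl, a small proteolipid, had 0.19 ± 0.20 and then 0.26 ± 0.19. Atp5md, a subunit found in enzyme dimers, read 11.37, 10.85 and 11.03 on the norepinephrine arrays and 11.93, 10.74 and 10.48 on the KCl arrays. KCl replicate 1 was its highest value of all, so its difference of 0.035 ± 0.36 became 0.48 ± 0.20 without that array, and its groups then no longer overlapped. On the probe sets used, the accessory subunits were the part of the enzyme whose median did not become smaller without KCl replicate 1, at 0.37 and then 0.42. This rested on the probe set used for Atp5md. The other Atp5md probe sets gave -0.16 and then 0.31, and 1.09 and then 0.34. With either of these in its place, the median would become smaller without that array.

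**Figure D3:**
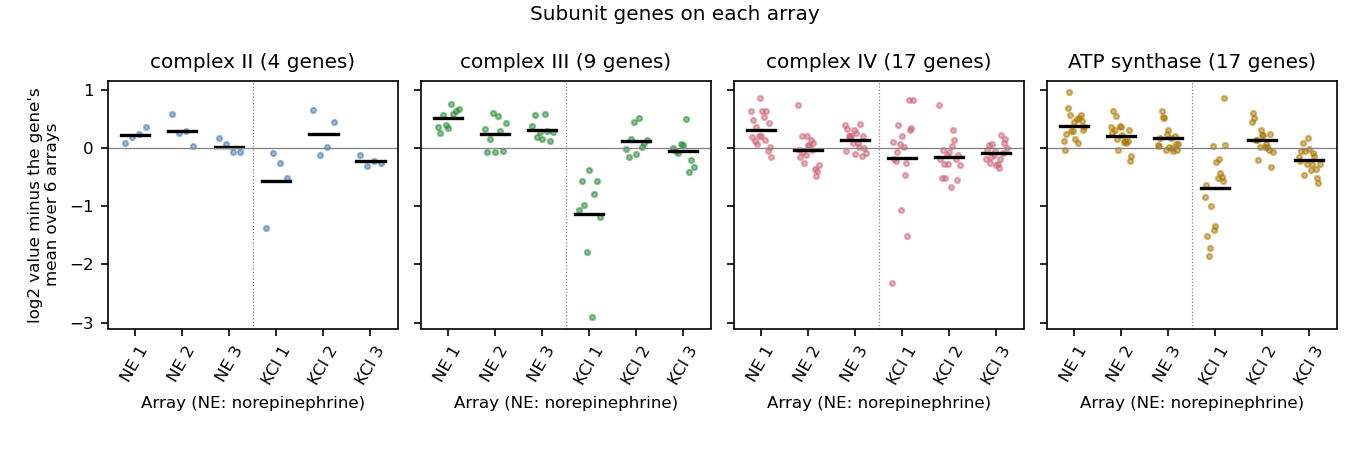
Log2 value minus the gene's mean over the 6 arrays (vertical axis) for every gene of each complex on each array, with the mean over the genes as a black line. On KCl replicate 1 these means are -0.56, -1.13, -0.18 and -0.69 for complexes II, III and IV and ATP synthase, and on KCl replicate 2 they are 0.25, 0.12, -0.15 and 0.14.

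KCl replicate 1 did not weigh on each complex alike. The mean deviation of the complex III genes from their own 6-array means was 0.51, 0.24 and 0.32 on the norepinephrine arrays and -1.13, 0.12 and -0.049 on the KCl arrays. For ATP synthase it was 0.38, 0.21 and 0.17 with norepinephrine and -0.69, 0.14 and -0.21 with KCl. In complex IV it was 0.31, -0.041 and 0.14, then -0.18, -0.15 and -0.082, and here KCl replicate 1 gave the lowest value in 5 of the 17 genes. KCl replicate 2 was above the genes' own means in complexes II and III and ATP synthase, and was the highest of the 6 arrays for Sdha, Sdhd, Cox7a2l, Atp5a1, Atp5b and Atp5pb (12.8% of the genes, against 17% of the named and 37.2% of the bright probe sets). Differences between complexes were not tested.

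Bright genes did not all shift on KCl replicate 1. Against the mean of the other KCl arrays, the shift ran from -3.41 in Uqcrh to 1.32 in Atp5md, with a median of -0.37 over the 47 genes and -0.53 over the bright probe sets. It was below -1 in 13 genes (27.7%), against 8.77% of the named and 25.6% of the bright probe sets. In 22 genes it stayed within 0.5 in either direction. In Uqcrh, Cox4i1 (-2.59), Uqcrc2 (-2.03) and Atp5d (-1.96) the array was low. Cox6c (0.39), Cox8a (0.55) and Cox6b1 (0.20), all of them bright, read above the other KCl arrays on the probe sets used. A second probe set of Cox6c, with a mean of 11.95, went the other way, at -1.63.

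**Figure D4:**
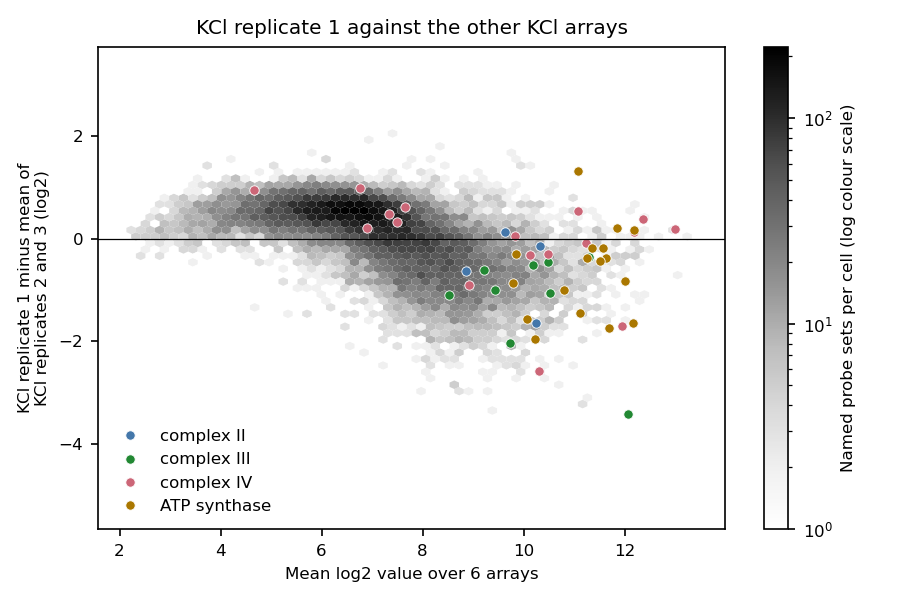
KCl replicate 1 minus the mean of KCl replicates 2 and 3 (log2, vertical axis) against the mean over the 6 arrays (log2, horizontal axis), with the density of the 21640 named probe sets in grey and the 47 genes coloured by complex. The grey cloud lies above 0 for dim probe sets and below 0 for bright ones, and the genes run from -3.41 (Uqcrh) to 1.32 (Atp5md).

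Several probe sets of one gene also parted on this array. Of the 47 genes, 12 had more than 1 probe set, 31 in all. The spread between the lowest and highest difference over the probe sets of a gene had a median of 0.51 over these 12 genes, and of 0.12 without KCl replicate 1, and it became smaller in 10 of them. For Atp5md, the 3 probe sets gave 0.035, -0.16 and 1.09 with all arrays, with shifts of KCl replicate 1 of 1.32, 1.41 and -2.26. Without that array they gave 0.48, 0.31 and 0.34. For Cox6c, the 2 probe sets gave 0.098 and 0.79, and then 0.23 and 0.25.

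For Atp5l, 5 probe sets ran from -0.27 to 1.36, and then from 0.16 to 0.53. The exception in sign was Atp5g2, whose 3 probe sets ran from -0.22 to 1.13 and still from -0.22 to 0.36 without the array. Atp5pb had probe sets of both signs only without the array, at -0.0017 and 0.21. The probe set that represents a gene would have been the same for all 47 genes had it been chosen without KCl replicate 1.

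**Figure D5:**
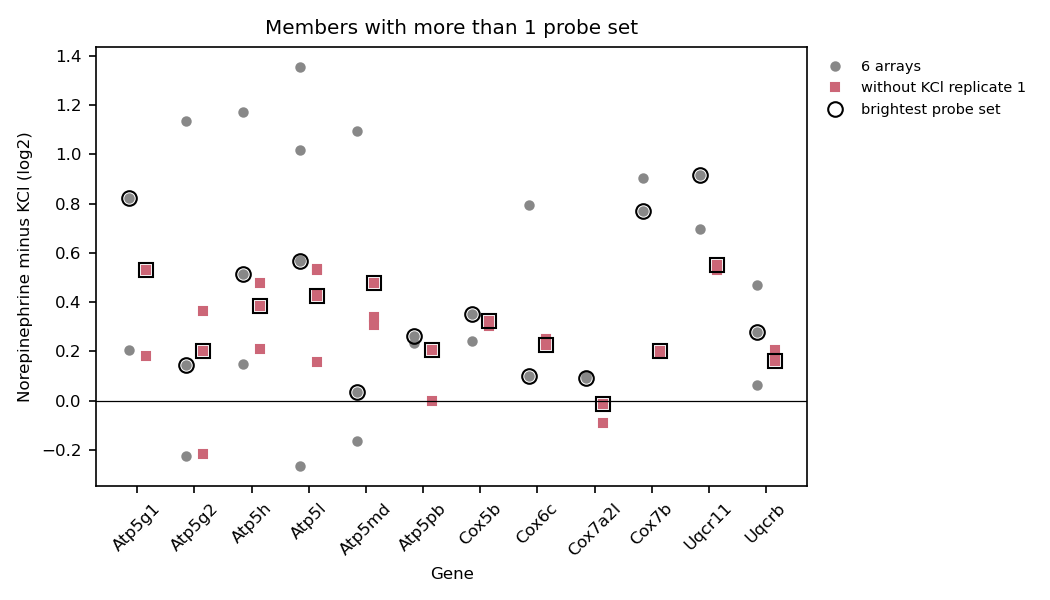
Norepinephrine minus KCl difference (log2, vertical axis) of every probe set of the 12 genes with more than 1, from 6 arrays (grey circles) and without KCl replicate 1 (red squares), with the brightest probe set of each gene ringed. The squares of a gene lie closer together than its circles in 10 of the 12 genes, the median spread being 0.51 with all arrays and 0.12 without KCl replicate 1.

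Other mitochondrial genes give the setting. Complex I, the entry of the chain for electrons from NADH, was read from genes with Nduf subunit symbols. The symbols take in Ndufa4 and Ndufa4l2, which may not belong to this complex. The genes were higher with norepinephrine in 35 of 35 with and without KCl replicate 1 (33 over 6 arrays after cyclic loess normalization), with medians of 0.52 and 0.34. Of these, 7 and then 11 had an unadjusted p under 0.05, and the smallest p values over 6 arrays were those of Ndufb7 (0.78 ± 0.24), Ndufb10 (1.03 ± 0.35) and Ndufa2 (0.87 ± 0.30), which were at 0.62 ± 0.21, 0.62 ± 0.21 and 0.58 ± 0.23 without KCl replicate 1. Mitochondrial ribosomal proteins, which translate the genes of mitochondrial DNA, were higher in 73 of 77 genes both times (67 over 6 arrays after quantile normalization), with medians of 0.34 and 0.22. Here 8 and then 11 had an unadjusted p under 0.05, led by Mrpl27 (0.91 ± 0.27), Mrpl4 (0.57 ± 0.18) and Mrpl2 (0.68 ± 0.22), then at 0.68 ± 0.22, 0.51 ± 0.16 and 0.54 ± 0.20. These counts were 20% and 31.4% of the Nduf genes, and 10.4% and 14.3% of the ribosomal ones. Toward norepinephrine the named probe sets had 2.2% and then 2.38%, and the bright ones 4.84% and then 4.03%. None of the genes of either list passed the adjusted threshold in limma in either comparison.

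Assembly factors of complexes II to V, which build the complexes but are not part of them, were higher with norepinephrine in 23 of 31 measured genes and in 22 without KCl replicate 1, with medians of 0.21 and 0.13. Coa3, a factor for complex IV, had the smallest p at 0.61 ± 0.23, followed by Uqcc1 (0.58 ± 0.26) and Sdhaf4 (0.52 ± 0.25). Without KCl replicate 1 they were at 0.56 ± 0.23, 0.35 ± 0.21 and 0.42 ± 0.25. Cycs, cytochrome c, which links complexes III and IV, had a difference of 0.44 ± 0.32, and of 0.083 ± 0.21 without KCl replicate 1. Its testis form Cyct had -0.22 ± 0.24 and then -0.048 ± 0.21, and Higd2a, a factor of supercomplexes, had 0.57 ± 0.27 and then 0.37 ± 0.23. Atpif1, the inhibitor of ATP synthase, had 0.041 ± 0.19 and then 0.12 ± 0.17. Of these and Higd1a, 5 genes in all, 3 were higher with norepinephrine (2 after either normalization), and 4 without KCl replicate 1.

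The citric acid cycle, which feeds complex II with succinate, was higher with norepinephrine in 15 of 16 genes over 6 arrays (12 after quantile and 11 after cyclic loess normalization, median 0.42), and in 11 of 16 without KCl replicate 1 (median 0.14). Its smallest p values were those of Idh3b (0.75 ± 0.33), Ogdh (0.40 ± 0.19) and Pdhx (0.85 ± 0.43), which were at 0.38 ± 0.21, 0.31 ± 0.17 and 0.33 ± 0.26 without KCl replicate 1. KCl replicate 1 gave the lowest of the 6 values in 15 of these 16 genes. Regulators of mitochondrial biogenesis were higher in 8 of 15 genes (9 and 10 after those normalizations), and in 7 without KCl replicate 1, with medians of 0.014 and -0.043, and 0 of them had an unadjusted p under 0.05 in either comparison. Tfb2m (0.54 ± 0.41), Tfam (0.40 ± 0.38) and Gabpa (0.30 ± 0.32), which act on mitochondrial DNA transcription or on nuclear promoters, had the smallest p values. Without KCl replicate 1 they were at 0.15 ± 0.34, 0.043 ± 0.30 and -0.086 ± 0.17. Nrf1 and Yy1, whose motifs were searched above, had differences of 0.13 ± 0.17 and -0.011 ± 0.18, or 0.12 ± 0.16 and -0.043 ± 0.17 without KCl replicate 1, and the coactivator Ppargc1a had -0.033 ± 0.26, or -0.32 ± 0.16.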

How the data were processed

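The authors deposited a table of log2 values, 1 per probe set and array, made with Partek and RMA (which corrects background, normalizes by quantiles and summarizes probes), per the submitters' processing notes, without versions. RNA was amplified with a NuGEN kit, per the labels' protocols. No scanner files were used, so signal over background is unknown, and the number of arrays limits the precision.

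Of 34760 probe sets, 21640 had 1 symbol in the platform annotation, 1321 several and 11799 none. All 66 probe sets of the genes matched the RefSeq gene table (GRCm38.p6), which changed 0 symbols. Groups and replicate numbers came from the titles and treatment labels. The model was lmFit and eBayes of limma 3.58.1 in R 4.3.3 on all 21640 named probe sets with no covariate, and two-sided p-values were adjusted by the Benjamini-Hochberg method. Errors are moderated standard errors, n being 3 and 3, or 3 and 2 without KCl replicate 1. The code was tested on simulated data.

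All 47 genes are named. Values on every array are given for genes picked by role and, in complexes III and IV and ATP synthase, for the 2 largest and the 2 smallest differences. Of other mitochondrial lists up to 3 genes of smallest p are named; Atpif1, Nrf1, Yy1 and Ppargc1a were added after their values were seen. The genes, the lists and the tissue isoforms were chosen with earlier results of these data known. Alternatives were quantile and cyclic loess normalization, array centring, filters on dim probe sets, trend, robust and array-weight options, the replicate block, means over probe sets and leaving out arrays, 17 settings, and 3 more added after the data were seen.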

Additional observations from a re-analysis of the deposited data

How the results depend on the processing

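No gene passed the adjusted threshold under any setting but one. With array weights, which gave KCl replicate 3 55.4% of the total weight and KCl replicates 1 and 2 1.29% and 2.36%, 1454 probe sets (865 higher with norepinephrine, 589 with KCl) and 13 of the 47 genes were called and 27 genes had an unadjusted p under 0.05, as did 11.2% of all probe sets tested toward norepinephrine and 12.7% toward KCl. That count was 11 as reported, against 2.2% of the probe sets tested toward norepinephrine. It was 6, against 3.23%, when only probe sets above the 75th percentile were tested (41 of the genes). With a variance trend it was 7, against 2.06%. Without norepinephrine replicate 1 and KCl replicate 1 it was 2, against 1.34%. Leaving out 1 array moved it from 2 to 26, the called genes from 0 to 0, the called probe sets from 0 to 4, and the medians from 0.26 to 0.51 (all genes), 0.13 to 0.44 (complex II), 0.29 to 0.88 (III), 0.045 to 0.34 (IV) and 0.26 to 0.68 (ATP synthase). Without norepinephrine replicate 1 and KCl replicate 1, the medians of complex III and ATP synthase were 0.19 and 0.19, and after quantile normalization without KCl replicate 1 that of ATP synthase was 0.23. The replicate block called 0 probe sets and put 16 genes at an unadjusted p under 0.05, with 4.24% of all probe sets toward norepinephrine and 2.39% toward KCl, against 2.2% and 1.24% without it. Deviations of equal replicate numbers correlated at 0.30, 0.63 and 0.085, and not every array correlated best with its own number. With 3 arrays in each group, such correlations cannot show whether equal numbers share an animal or culture. The labels do not say that they do, so the numbers were not taken as pairs.

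Of the 47 genes, 36 kept one sign under the 17 settings, and 33 when the 3 added ones were counted. Those added turned Atp5a1 (-0.0051) and Cox7b2 (0.017) after quantile normalization without KCl replicate 1, and Sdhd (-0.12) without norepinephrine replicate 1 and KCl replicate 1. Quantile normalization turned the sign of Cox6a2 (-0.048), Cox7a2l (-0.051), Cox8a (-0.023), Atp5b (-0.0078) and Atp5md (-0.041). Cyclic loess turned Cox6b1 (-0.12), Cox6c (-0.12), Cox7a2l (-0.084), Cox8a (-0.096), Atp5b (-0.051), Atp5g2 (-0.071), Atp5j (-0.060), Atp5md (-0.16) and Atp5mpl (-0.021). Leaving out 1 array gave differences from -0.0044 to 0.15 for Cox4i2, -0.23 to 0.23 for Cox6a2, -0.018 to 0.23 for Cox6c, -0.015 to 0.27 for Cox7a2l, -0.15 to 0.36 for Cox8a, -0.11 to 0.51 for Atp5b and -0.25 to 0.48 for Atp5md. The cause of these turns was not tested.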
